A study of Bos taurus with 90 samples.

Results

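The 100 most abundant transcripts of the liver were examined in Charolais (CH) and Holstein-Friesian (HF) steers that differed in residual feed intake (RFI). The members were chosen by their measured level, as the 100 genes with the highest mean CPM (the count of a gene per 1000000 counts of its library) over all 90 libraries, out of 24616 genes in the deposited table. RFI is the feed an animal eats beyond what its size and growth predict, so that a low RFI animal is the more efficient one. Liver biopsies were taken from steers (castrated males) at the end of each of 3 dietary phases, which did not follow each other directly. In H1 and again in H2 the steers had free access to the same barley-based concentrate with a limited amount of grass silage, and in ZG, between them, they had cut grass brought indoors (zero-grazing). In CH, H1 was represented by 9 low and 11 high RFI animals, ZG by 3 of each and H2 by 9 low and 8 high. In HF the numbers were 7 low and 9 high for H1, 10 and 8 for ZG, and 5 and 8 for H2. According to the paper, the steers had grass silage between H1 and ZG and grazed grass between ZG and H2. They also grew older from H1 to ZG to H2. Diet, the feeds between phases, age and season therefore cannot be told apart, and the labels name no library batch. The biopsies of all groups were taken under local anaesthetic, and the ages of the steers are not given in the labels. The paper reports a higher mean age in HF than in CH when H1 began, so breed and age cannot be told apart either.

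The liver makes most of the proteins of the blood plasma, and a hepatocyte therefore carries a small set of very abundant messenger RNAs for secreted proteins. Among these are the chains of fibrinogen, which forms the clot, the complement proteins of innate immunity and the apolipoproteins of fat-carrying particles. During the acute phase response, a reaction to inflammation, hepatocytes raise the output of some of these proteins, fibrinogen and haptoglobin among them.

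Between 9097695 and 63621304 reads were counted per library, with a median of 18858293, so that counting error was small for every member. The file gives Ensembl identifiers without gene names. The 351 names used here are ones that a supplementary table of the study pairs with identifiers, and 7 of the 100 members had one. They are FGG (rank 6), FGA (7), TMBIM6 (46), C5 (58), AHCY (61), APOC3 (76) and EPHX1 (94). That table holds genes the study had selected between RFI groups in these same libraries, so these 7 are no random sample of the members, and none of the 12 hepatocyte markers could be looked up. The other 93 members are called here by their rank in mean CPM (rank 1, rank 2 and so on). Gene lengths were not used, so ranks order reads and not numbers of transcript molecules. HP, which encodes the acute phase protein haptoglobin, was above 6000 CPM in 5 libraries, namely CH H2 high RFI steer 419 (22730 CPM), HF ZG high RFI steer 2272 (15334 CPM), HF H1 low RFI steer 5632 (9973 CPM), HF H2 high RFI steer 1639 (6545 CPM) and HF H1 high RFI steer 1811 (6336 CPM), against a median of 120 CPM over all libraries. Some of these 5 libraries stood apart in several members, and counts are given without all 5 where they moved a result. The steer number 1797 is labelled CH in H1 and HF in H2.

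The 100 members held 54.5% ± 3.63 (SD, n = 90) of all counts. The share was lowest in HF H1 low RFI steer 5632, at 45.9%, and highest in CH H2 low RFI steer 493, at 63.3%. Together, 50% of all counts lay on the 27 most abundant genes of the library with the highest share and on the 123 most abundant genes of the library with the lowest, with a median of 74 genes. Every library entered the mean by which the members were chosen, so part of the overlap that follows was set by that choice. In any 1 library, between 81 and 96 of them belonged to its own 100 most abundant genes, and 52 members did so in every library. Of the 100 genes with the highest mean in a single breed and diet, 94 to 97 were members.

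**Figure D1:**
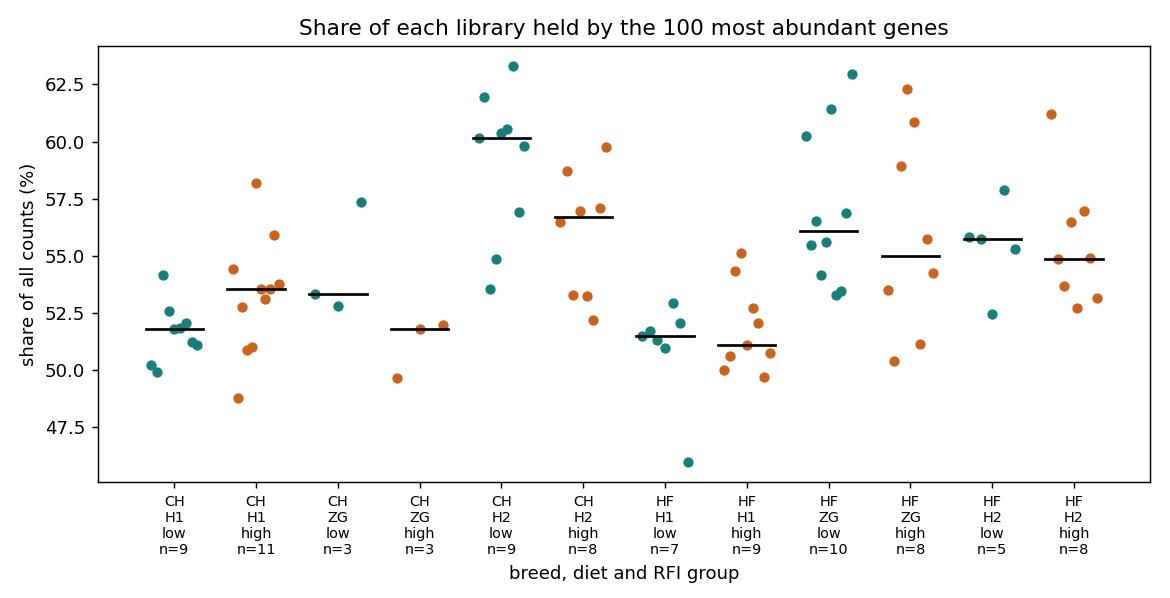
Share of all counts of a library (vertical axis, percent) held by the 100 most abundant genes, in the 12 groups of breed, diet and RFI (horizontal axis, with the number of steers); each point is a library, green for low and orange for high RFI, and the bar is the group's median. The H1 libraries lay between 45.9% and 58.2% and the CH H2 low RFI libraries reached 63.3%.

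A few genes dominated. Rank 1 (ENSBTAG00000017121) was the most abundant gene in all 90 libraries and alone held 10.1% of the counts on average, up to 15.7% in CH H2 low RFI steer 493. Ranks 1 to 10 together held a median of 27.2% of a library and at most 38.0%. Mean CPM was above 10000 for 7 members, between 2000 and 10000 for 60 and under 2000 for 33. At the lower edge of the list, ranks 96 to 100 had mean CPM from 1228 to 1189, and the 5 genes just outside from 1182 to 1173. HP was one of these, at rank 104. By its median it would have been rank 825, since 19 of the 90 libraries were above its mean of 1174 CPM and its lowest level was 11.9 CPM.

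The members differed widely in how steady they were. The coefficient of variation (CV, the SD as a percent of the mean) over the 90 libraries had a median of 24.2% over the members, against 27.2% over the 11955 genes with a mean of at least 1 CPM. The steadiest member was rank 38, which stayed between 2584 and 4246 CPM (CV 8.87%), followed by ranks 20 (CV 11.1%), 75 (CV 11.6%), 23 and 95 (both CV 12.7%). The least steady member was rank 31 (CV 59.7%), with levels from 1388 to 19110 CPM, the highest in CH H2 high RFI steer 419, one of the libraries with high HP. Rank 47 (CV 51.1%) ran from 151 CPM in HF ZG low RFI steer 5635 to 4950 CPM in CH H1 low RFI steer 579. It was followed by ranks 53 (CV 49.4%), 36 (CV 45.3%) and 99 (CV 40.9%).

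The share of the members was higher in H2 than in H1 in both breeds, and in HF also in ZG. In CH it was 52.5% ± 2.18 (SD, n = 20) in H1, 52.8% ± 2.56 (n = 6) in ZG and 57.6% ± 3.35 (n = 17) in H2. In HF it was 51.4% ± 2.06 (SD, n = 16) in H1, 56.5% ± 3.81 (n = 18) in ZG and 55.5% ± 2.39 (n = 13) in H2. All of these ranges overlapped. In CH they were 48.8% to 58.2% in H1, 49.7% to 57.4% in ZG and 52.2% to 63.3% in H2. In HF they were 45.9% to 55.1% in H1, 50.4% to 63.0% in ZG and 52.4% to 61.2% in H2. In CH the means of H1 and ZG differed by less than the SD of either, and ZG rests on 6 libraries there. Within a breed and diet the RFI groups overlapped in 5 of 6 cases. The exception was ZG in CH, where the 3 low RFI steers had 52.8%, 53.3% and 57.4% and the 3 high RFI steers 49.7%, 51.8% and 52.0%. As the share is a score over genes chosen for their abundance, it was not tested.

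A few genes gave much of the difference in share from H1. From H1 to H2 in CH the share grew by 5.06 percentage points, of which rank 1 gave 2.14 and rank 2 gave 1.20. The members that gained, 62 in number, added 8.07 points together and the other 38 took away 3.01. In CH between ZG and H2 rank 1 gave 1.07 of 4.79 points and the other members 3.71. In HF rank 1 gave 3.03 of the 5.09 points between H1 and ZG and 2.75 of the 4.05 points between H1 and H2. Ranks 2, 8, 9, 11, 14, 15, 19, 27, 36 and 39 have identifiers close in number, from ENSBTAG00000043550 to ENSBTAG00000043584. Each of them gained share in CH H2, HF ZG and HF H2 against H1, as rank 11 with 0.41 and rank 8 with 0.39 points in CH H2. Rank 4 moved against the sum in all 3 of these differences, with 0.54 points less in CH H2 than in H1, 0.56 points less in HF ZG and 0.41 points less in HF H2. Rank 25 was the next in each case (0.37, 0.20 and 0.29 points less). Between the libraries with the highest and the lowest share, 17.4 points apart, rank 1 accounted for 11.1 points and rank 2 for 3.35.

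**Figure D2:**
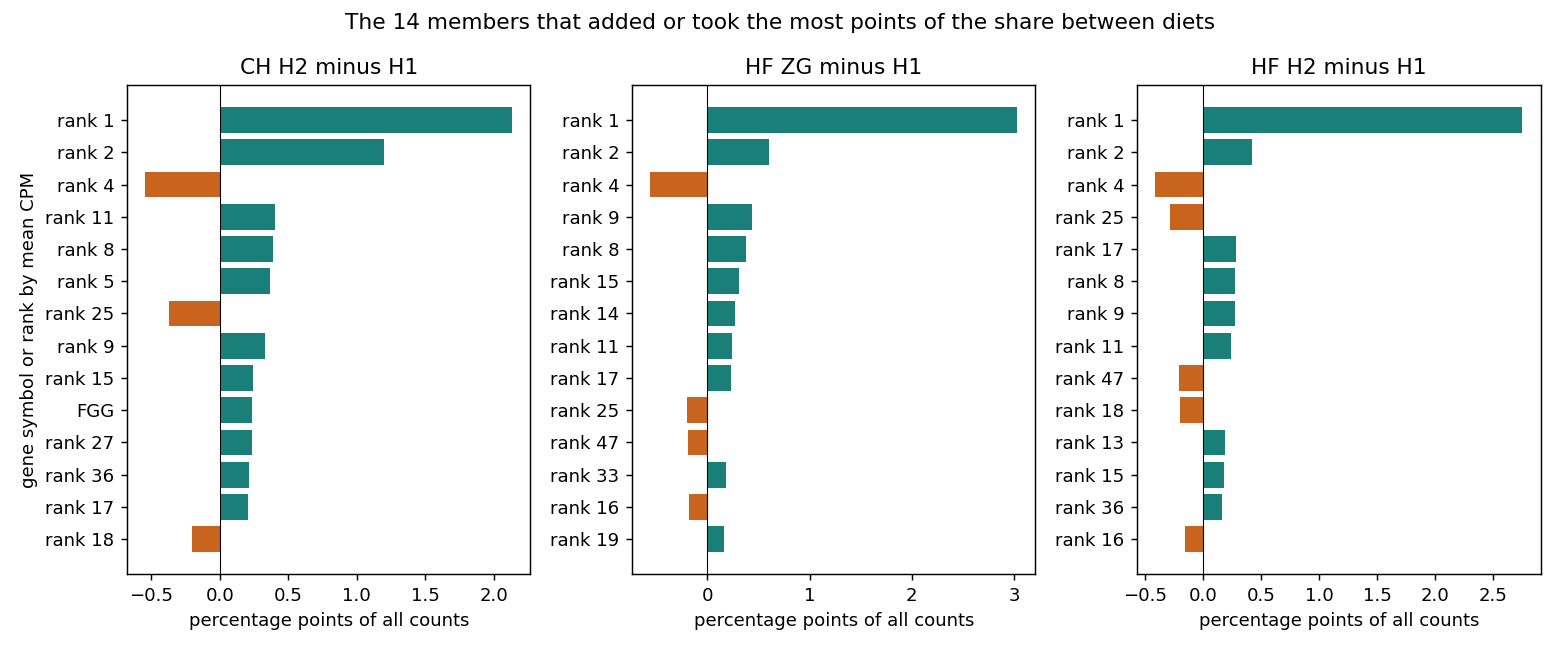
Percentage points of all counts (horizontal axis) that single members added (green) or took away (orange) between 2 diets, from the mean CPM of each breed and diet; the 14 members with the most points are listed by symbol or rank for CH H2 against H1, HF ZG against H1 and HF H2 against H1. Rank 1 gave 2.14, 3.03 and 2.75 points, and rank 4 took the most away in each panel.

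Some steers were sampled in more than 1 phase, and their libraries allow a comparison within an animal. The share of the members was higher in H2 than in H1 in 4 of 4 such CH steers, by 1.19 to 9.96 percentage points, and in 4 of 4 HF steers, by 1.35 to 7.22 points. Rank 1 held more of the counts in H2 than in H1 in all 8 of these steers. Between H1 and ZG the share grew in 3 of 3 HF steers, by 7.11 to 10.9 points, and in 2 of 3 CH steers, and in the other it dropped by 2.91 points. Between ZG and H2 it grew in the 1 CH steer sampled in both, by 3.08 points. It also grew in 2 of 3 HF steers, with changes from -3.68 to 10.8 points, whereas the HF group mean changed by -1.04 points. The largest HF changes from H1 were those of steer 5632, whose H1 library had over 6000 CPM of HP. The 10.8 points were those of steer 1639, whose H2 library did. Several steers changed RFI group between phases, such as CH steer 1100 and HF steer 2071.

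Differences between diets were tested for all genes with edgeR's quasi-likelihood test. All 90 libraries were in one fit, and each contrast took the mean of both RFI groups. Libraries were scaled by TMM normalization, which assumes that most genes do not change. A gene with a Benjamini-Hochberg adjusted p under 0.1 over all 13945 genes tested is described as called, as rising or as falling, and its log2 fold change is given with its standard error (SE). All 100 members passed the filter on low counts.

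In CH, 76 members were called between H2 and H1, where 66.6% of all genes tested were called. Of these, 70 rose, against 34.8% of all genes, and 6 fell, against 31.8%. The median log2 fold change was 0.37 over the members and 0.03 over all genes. In HF, 68 members were called between H2 and H1 (61.9% of all genes), of which 56 rose (30.8% of all genes) and 12 fell (31.1% of all genes), with a median of 0.28 against 0.00. The number of called members was thus close to the background in both breeds, and the split by direction was not. H1 and H2 were the same diet, fed at different ages.

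Between ZG and H1 in HF, 69 members were called, against 58% of all genes. Of these, 65 rose and 4 fell (28.8% and 29.2% of all genes). In CH the same comparison, with 6 ZG libraries, called 23 members (17.8% of all genes), of which 19 rose and 4 fell (10.8% and 6.96% of all genes). That count was 15 without CH ZG high RFI steer 1816 and 6 without CH ZG low RFI steer 788. Between H2 and ZG, 8 members were called in CH (2.82% of all genes), and all 8 rose (1.83% of all genes rose and 0.99% fell). It was 1 without steer 1816 or without steer 1831 and 2 without steer 357 or without steer 437, all of the CH ZG groups. In HF, 12 members were called between H2 and ZG (7.24% of all genes), of which 3 rose (3.89% of all genes) and 9 fell (3.36% of all genes). This count was 6 without HF H2 low RFI steer 2071 and also 6 without steer 2220.

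The direction of these calls depended on the scaling. TMM assumes that most genes do not change. In CH H2, HF H2 and HF ZG against H1, however, 66.6%, 61.9% and 58% of all genes were called. TMM factors had a median of 1.06 in CH H1 and 1.11 in HF H1, but 0.90 in CH H2, 0.94 in HF ZG and 0.99 in HF H2, so that they were lower in the groups where the members held more of the counts. When libraries were scaled by their total counts alone, 39 members rose and 20 fell between H2 and H1 in CH, 39 rose and 18 fell between ZG and H1 in HF, and 37 rose and 18 fell between H2 and H1 in HF. Of all genes, 10.4% rose and 48.4% fell in the first of these comparisons, 6.22% and 52% in the second, and 12.2% and 42.4% in the third. The median log2 fold change of all genes was then -0.23, -0.29 and -0.20 in these 3 comparisons, and that of the members was 0.10, 0.04 and 0.08. Scaled by the total of the genes that are not members, 60 rose and 13 fell, 51 rose and 9 fell, and 51 rose and 13 fell, where 24.5%, 16.9% and 23.1% of all genes rose and 37.8%, 38.5% and 35.6% fell. Under all 3 scalings the median of the members lay above that of all genes in these comparisons. A change of scaling moves all genes of a comparison by about the same amount. The 3 scalings could therefore hardly differ in this, and they are no separate support for it. With library totals the 8 members called in CH between H2 and ZG became 7, of which 5 rose and 2 fell (0.466% and 6.72% of all genes, with a median of -0.20), and the 12 in HF became 14, of which 9 rose and 5 fell (10.4% and 1.99% of all genes).

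**Figure D3:**
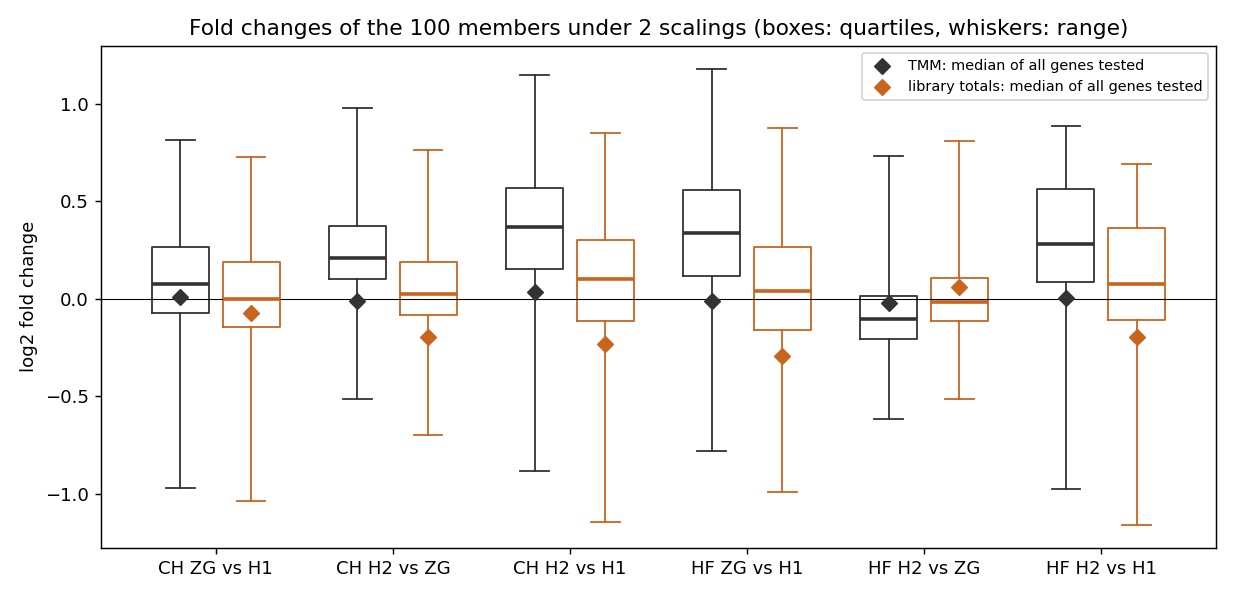
Log2 fold changes (vertical axis) of the 100 members in the 6 diet comparisons (horizontal axis) with TMM scaling (black) and with scaling by library totals (orange); boxes give the quartiles, whiskers the range and diamonds the median of all genes tested. With TMM the median of all genes stays near 0 and with library totals it drops to -0.29 in HF ZG against H1, and the median of the members lies above it under both scalings except in HF H2 against ZG.

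The breeds, which share no library, could be compared gene by gene. Between H2 and H1, 95 of the 100 members had the same sign in CH and HF, as did 89.9% of all genes, and 62 were called in both breeds, all in the same direction (56 rose and 6 fell). Of all genes, 54.8% were called in both breeds (27.6% rose and 27.1% fell in both), and all but 3 of these 7635 genes went the same way in both. Between ZG and H1, 82 members had the same sign, near the 85.8% of all genes, and 22 were called in both (19 rose and 3 fell), against 16.5% of all genes (9.97% and 6.55%). Between H2 and ZG only 45 members had the same sign, while 69.1% of all genes did, and 1 member was called in both, against 0.846% of all genes.

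**Figure D4:**
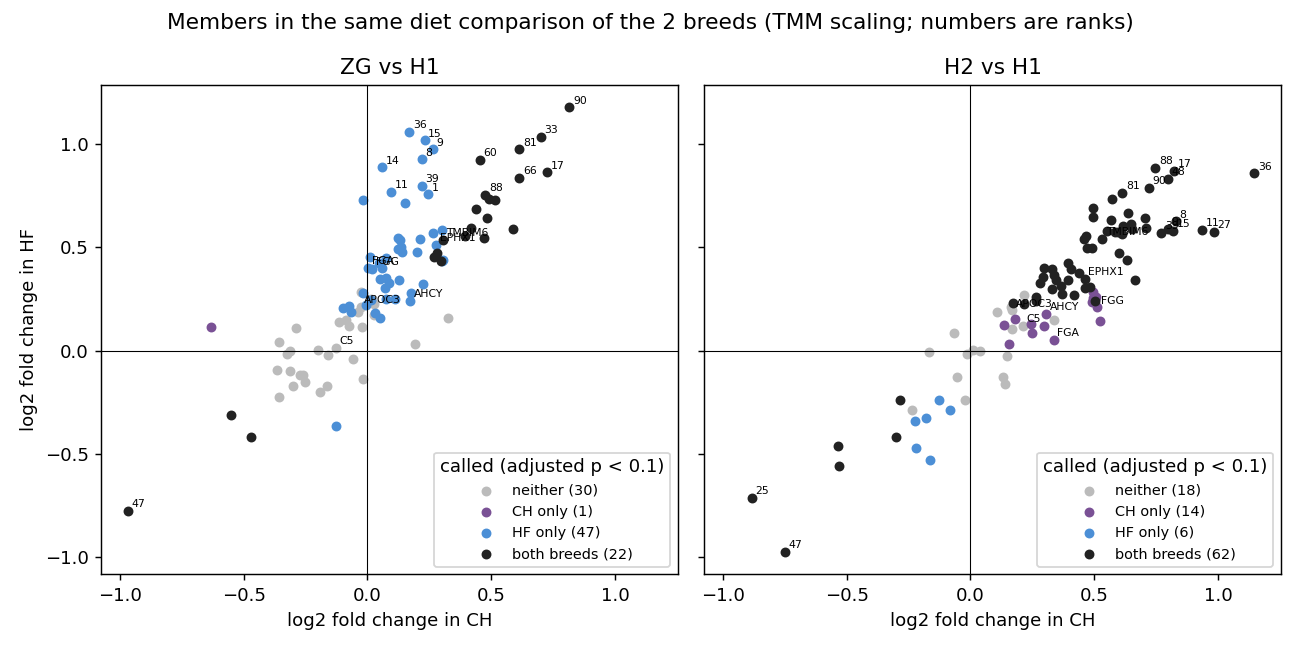
Log2 fold change of each member in CH (horizontal axis) and HF (vertical axis) for ZG against H1 (left) and H2 against H1 (right), with TMM scaling; black points were called in both breeds, coloured points in 1 and grey points in neither, and members with a symbol or a change above 0.75 are labelled by symbol or rank. The 62 members called in both breeds for H2 against H1 lie in the upper right (56) or the lower left (6).

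The members that rose furthest were not the same in every comparison. Rank 36 (ENSBTAG00000043568) had the highest fold change between H2 and H1 in CH. It lay at a median of 2533 CPM (1217 to 4284) in the 20 CH H1 libraries and 4465 CPM (1037 to 9327) in the 17 CH H2 libraries, so that the ranges overlapped. On the log2 scale it rose by 1.15 (SE 0.19, edgeR adjusted p = 5.82e-07) in CH and 0.86 (SE 0.21, edgeR adjusted p = 0.000705) in HF. In ZG its median was 2738 CPM in CH and 3854 CPM in HF, and it was called against H1 in HF alone. Rank 17 rose in both breeds and on both later diets. Its lowest level in the 6 CH ZG libraries, 6473 CPM, was above 19 of the 20 CH H1 libraries, whose median was 4566 CPM. Its log2 fold change was 0.72 (SE 0.15) between ZG and H1 in CH, 0.86 (SE 0.12) in HF, 0.82 (SE 0.11) between H2 and H1 in CH and 0.87 (SE 0.13) in HF. Rank 90 had the highest fold change between ZG and H1 in both breeds, 0.82 (SE 0.23) in CH and 1.18 (SE 0.18) in HF, and rose from a median of 969 CPM in HF H1 to 1789 CPM in HF ZG. Rank 88 led between H2 and H1 in HF, at 0.88 (SE 0.13). Rank 1 rose between H2 and H1 in CH by a log2 fold change of 0.57 (SE 0.12), between ZG and H1 in HF by 0.76 (SE 0.12) and between H2 and H1 in HF by 0.63 (SE 0.13), and with library totals these were 0.30, 0.45 and 0.44 and still called.

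Few members fell, and 3 of them did so in all 4 comparisons against H1, ranks 25, 47 and 69. Rank 25 (ENSBTAG00000000522) went from a median of 6903 CPM (3514 to 9670) in CH H1 to 4344 CPM (3515 to 6374) in ZG and 3044 CPM (1423 to 5459) in H2. In HF it went from 6224 CPM (3693 to 7835) to 4054 CPM (2645 to 5306) and 3141 CPM (1486 to 5793). Its median thus stepped down at each phase in both breeds, and its log2 fold change between H2 and H1 was -0.88 (SE 0.13) in CH and -0.71 (SE 0.15) in HF. Rank 47 (ENSBTAG00000010123) spread out as it fell. In the 20 CH H1 libraries it stayed between 2993 and 4950 CPM, and in the 17 CH H2 libraries it ran from 417 to 4437 CPM. In HF ZG it ran from 151 to 4620 CPM, with a log2 fold change against H1 of -0.78 (SE 0.26, adjusted p = 0.0115 from edgeR). Rank 4 was not called in any of these comparisons with TMM, with a log2 fold change of 0.038 (SE 0.10) between H2 and H1 in CH.

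Between H2 and ZG in CH the largest rises were those of ranks 36 (0.98, SE 0.28), 11 (0.84, SE 0.22) and 27 (0.83, SE 0.24). Their identifiers lie in the range named above. In HF rank 63 rose most (0.73, SE 0.14), from a median of 1193 CPM to 2054 CPM, and rank 60 fell most (-0.61, SE 0.11), from 2506 CPM to 1824 CPM. Rank 60 had risen in HF from H1 to ZG by 0.92 (SE 0.10).

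Few members were called between breeds, though on H2 more than the share of all genes. On H1, 1 member was called between CH and HF, where 2.12% of all genes were called (0.516% higher and 1.6% lower in CH). It was rank 85, higher in CH by 0.55 on the log2 scale (SE 0.12, edgeR adjusted p = 0.00617). Its median was 1685 CPM (1231 to 2873) in CH and 1347 CPM (904 to 1556) in HF. On ZG, edgeR called 0 members, against 0.0645% of all genes, with 14 members and 6.35% of all genes under an unadjusted p of 0.05, and the DESeq2 Wald test also called 0 (0.0705% of all genes). On H2, 4 members were called, all higher in CH (0.81% of all genes, 0.416% higher and 0.394% lower). They were ranks 56 (0.63, SE 0.16), 85 (0.62, SE 0.13), 60 (0.45, SE 0.11) and 34 (0.38, SE 0.09). An unadjusted p under 0.05 was found for 23 members and 7.87% of all genes on H2, and for 8 members and 10.4% on H1. Without the 5 libraries above 6000 CPM of HP, 6 members were called on H2 (1.17% of all genes) and 0 on ZG (0.0792%). Members with an unadjusted p under 0.05 then numbered 29 on H2 (8.93% of all genes), 25 on ZG (9.12%) and 6 on H1 (7.51%). Rank 85 ran from 925 to 2679 CPM in the 17 CH H2 libraries and only from 833 to 1197 CPM in the 13 HF H2 libraries. With library totals the median of all genes moved to 0.15 between breeds on ZG and to -0.10 on H2, and 0 and 3 members were called (0.0645% and 2.14% of all genes).

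Whether a diet comparison differed between breeds was tested by the interaction of breed and diet. For ZG against H1 and for H2 against H1, edgeR called 0 members, and 0% of all genes. Under an unadjusted p of 0.05 there were 21 members and 3% of all genes for ZG, and 1 member and 2.37% of all genes for H2, and DESeq2 called 0 members in both (0.00504% and 0% of all genes). With library totals these numbers were 8 members and 9.2% of all genes for ZG. For ZG against H1 the breed difference was negative, lower in CH, in 94 of the 100 members with TMM (median -0.24) and in 59 with library totals (median -0.022). The median of all genes was 0.0063 with TMM and 0.21 with library totals. It was above that of the members in both, but a scaling moves all genes about alike, so these are not 2 separate results.

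The members with a name follow in the order of their roles. FGG and FGA encode the gamma and alpha chains of fibrinogen. FGG lay at a median of 13040 CPM over the 90 libraries, from 5667 CPM in CH H2 low RFI steer 454 to 33380 CPM in HF H2 high RFI steer 1639, and FGA at 12270 CPM, from 6806 CPM to 31132 CPM. The FGA count divided by the FGG count, not corrected for length, had a median of 0.94 and stayed between 0.75 and 1.33 in 89 libraries, and was 1.66 in steer 454. Both rose between H2 and H1 in CH, by 0.51 (SE 0.16, adjusted p = 0.00375 from edgeR) for FGG and 0.34 (SE 0.14, adjusted p = 0.0353 from edgeR) for FGA, and between ZG and H1 in HF, by 0.40 (SE 0.16) and 0.40 (SE 0.15). With library totals none of these 4 was called, with log2 fold changes of 0.24, 0.064, 0.083 and 0.097. The ranges of the diets overlapped throughout, as in CH, where FGG ran from 7016 to 19718 CPM in H1 and from 5667 to 27756 CPM in H2.

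C5, a complement component whose cleavage starts the lytic pathway, lay at a median of 2275 CPM (870 to 4831). It was not called in any diet comparison with TMM, and in HF ZG against H1 its log2 fold change was 0.015 (SE 0.13) with TMM and -0.30 (SE 0.12, adjusted p = 0.0289 from edgeR) with library totals, where it was called.

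APOC3, an apolipoprotein that slows the clearance of triglyceride-rich particles, had a median of 1673 CPM and ran from 577 CPM in HF ZG low RFI steer 5635 to 3019 CPM in HF ZG low RFI steer 5612. It was not called between diets or breeds, with log2 fold changes of 0.17 (SE 0.14) in CH and 0.20 (SE 0.17) in HF between H2 and H1.

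The other 3 named members encode intracellular proteins. TMBIM6, a membrane protein of the endoplasmic reticulum that protects from cell death, rose against H1 in all 4 comparisons, by 0.30 (SE 0.10) in CH ZG, 0.53 (SE 0.07) in CH H2, 0.54 (SE 0.08) in HF ZG and 0.54 (SE 0.08) in HF H2. In CH its median was 2427 CPM in H1, 2825 CPM in ZG and 3005 CPM in H2, and in HF it was 2502, 2922 and 3234 CPM. With library totals it was called in 3 of the 4, at 0.27 in CH H2, 0.25 in HF ZG and 0.35 in HF H2, and not in CH ZG (0.23). EPHX1, the microsomal epoxide hydrolase of detoxification, rose in CH H2 (0.46, SE 0.11), HF ZG (0.51, SE 0.11) and HF H2 (0.35, SE 0.12) against H1. With library totals it was called in CH H2 (0.19) and HF ZG (0.23) and not in HF H2 (0.16). AHCY, which breaks down S-adenosylhomocysteine in the methionine cycle, rose in CH H2 (0.31, SE 0.10) and in HF ZG (0.24, SE 0.10), but with library totals it was not called and its sign in HF ZG turned (0.037 and -0.025).

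**Figure D5:**
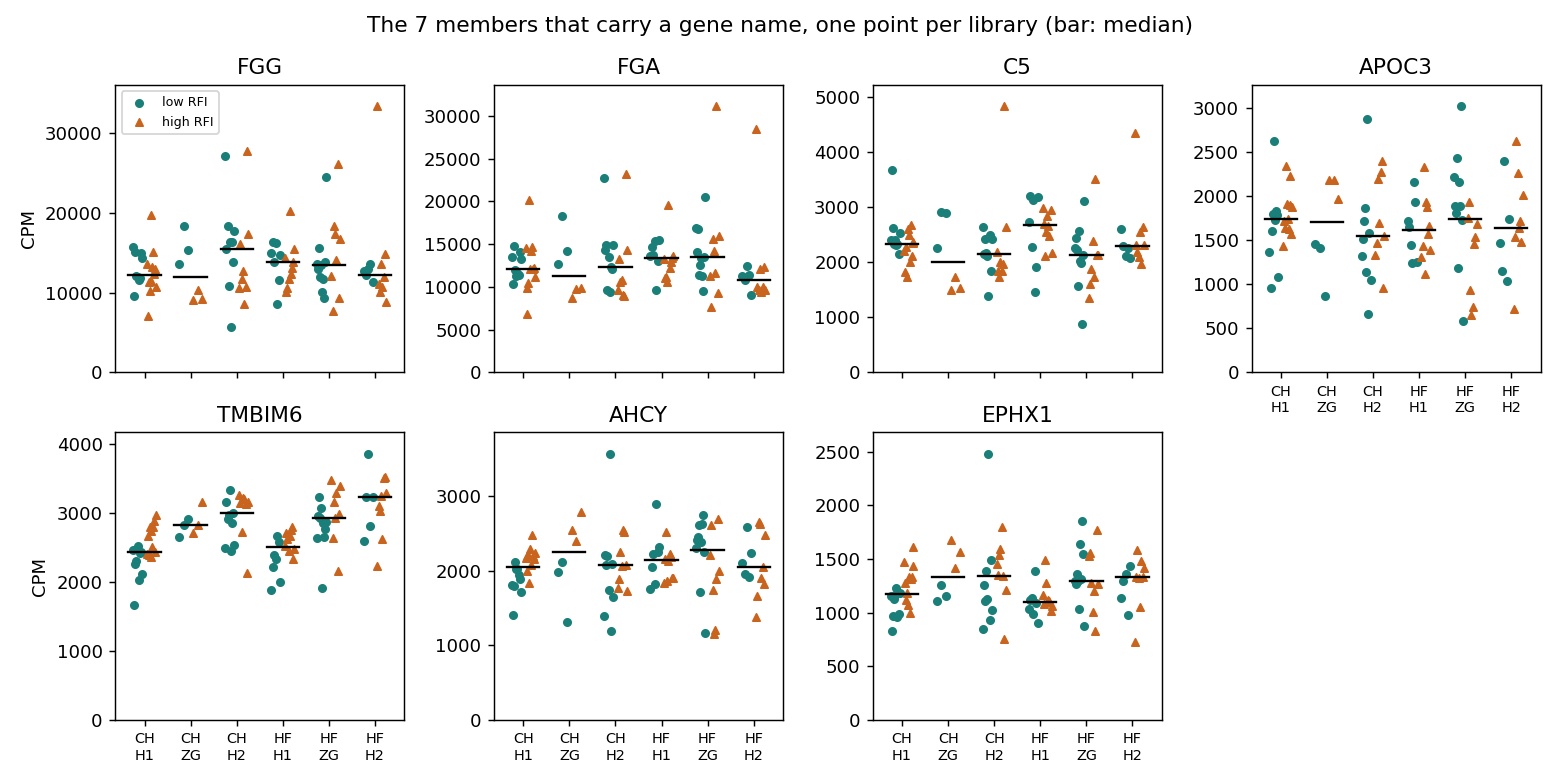
CPM (vertical axes, each from 0) of the 7 members that have a gene name, in each breed and diet (horizontal axis); each point is a library, green circles for low and orange triangles for high RFI, and the bar is the median. The median of TMBIM6 is lowest in H1 in both breeds, and single libraries reach 33380 CPM of FGG and 31132 CPM of FGA.

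RFI groups were compared within each breed and diet alone, with fold changes given as low over high RFI. No member was called by edgeR in any of the 6 comparisons, where 0.0155% of all genes were called in CH on H1 and 0% in the other 5. Members under an unadjusted p of 0.05 numbered 20, 19 and 5 in CH on H1, ZG and H2, where 11.7%, 13.5% and 2.86% of all genes were, and 10, 3 and 3 in HF, where 6.63%, 2.09% and 3.47% were. The DESeq2 Wald test called 3 members in CH on H1 (1.18% of all genes) and 5 in CH on ZG (1.26% of all genes), and 0 in the other 4 comparisons (0.0109% to 0.187% of all genes). Over all 90 libraries, RFI gave 0 calls among the members and 0% of all genes with edgeR. DESeq2 called 0 members and 0.0101% of all genes. With edgeR, 1 member and 6.39% of all genes had an unadjusted p under 0.05. These numbers moved to 14 members and 8.65% of all genes without the 5 libraries above 6000 CPM of HP. The 7 members with a name are among the 8 that DESeq2 called in CH on H1 or ZG. The list that gave the names was itself chosen between RFI groups in these libraries, so the differences below are not independent evidence. With 3 steers against 3, an exact permutation test could not give a p under 0.1.

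In CH on H1 the 3 were TMBIM6, EPHX1 and AHCY, each lower in low RFI steers. TMBIM6 ran from 1666 to 2526 CPM with a median of 2300 in the 9 low RFI steers and from 2356 to 2964 CPM with a median of 2671 in the 11 high RFI steers, and the groups overlapped. Its log2 fold change was -0.32 (SE 0.10), with an adjusted p of 0.256 from edgeR and 0.0588 from DESeq2. AHCY had medians of 1884 and 2196 CPM and differed by -0.32 (SE 0.10, adjusted p = 0.256 in edgeR and 0.0728 in DESeq2). EPHX1 had medians of 1130 and 1310 CPM and differed by -0.37 (SE 0.11, adjusted p = 0.256 in edgeR and 0.0920 in DESeq2). Low RFI steer 1792 had the lowest TMBIM6 (1666 CPM), AHCY (1405 CPM) and EPHX1 (830 CPM) of the 20 libraries and the highest HP (3460 CPM). HP ran from 47.6 to 3460 CPM in the low and from 26.8 to 3119 CPM in the high RFI steers. Without steer 1792, DESeq2 called 1 of the 3 (0.515% of all genes), TMBIM6 at -0.28 (SE 0.077, adjusted p = 0.0856), and no longer AHCY (-0.27, SE 0.081, adjusted p = 0.114) or EPHX1 (-0.33, SE 0.11, adjusted p = 0.172). With edgeR the adjusted p was then 0.367, 0.373 and 0.377.

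In CH on ZG the 5 included C5, FGG, FGA and APOC3, and they are given in that order. C5 was at 2255, 2894 and 2904 CPM in the 3 low RFI steers and at 1490, 1523 and 1736 CPM in the 3 high RFI steers. The groups did not overlap, and C5 differed by 0.84 on the log2 scale (SE 0.20, adjusted p = 0.365 in edgeR and 0.0369 in DESeq2). FGG was at 13586, 15341 and 18350 CPM in low and at 9118, 9201 and 10362 CPM in high RFI steers (0.80, SE 0.19, adjusted p = 0.365 in edgeR and 0.0370 in DESeq2). FGA was at 12639, 14245 and 18300 CPM in low and at 8739, 9704 and 9849 CPM in high RFI steers (0.75, SE 0.20, adjusted p = 0.365 in edgeR and 0.0951 in DESeq2). APOC3 went the other way, with 869, 1414 and 1450 CPM in low and 1971, 2179 and 2185 CPM in high RFI steers (-0.70, SE 0.20, adjusted p = 0.365 in edgeR and 0.0967 in DESeq2). HP, the acute phase gene just outside the list, was at 35.5, 899 and 2465 CPM in the same low RFI steers and at 11.9, 16.9 and 87.4 CPM in the high RFI steers. Its part in these differences was not tested.

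None of these 7 was called by either tool in another breed or diet. In HF on ZG, FGG and C5 differed by -0.13 (SE 0.25) and 0.06 (SE 0.23), and APOC3 by 0.56 (SE 0.22), the opposite sign to CH. Whether the RFI differences of CH and HF on ZG differ from each other was not tested.

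Some of the libraries with the most HP also held extreme levels of several named members. In HF H2, high RFI steer 1639 had 33380 CPM of FGG, 28444 CPM of FGA and 4347 CPM of C5, each the highest of the 13 libraries, and 716 CPM of APOC3, 726 CPM of EPHX1, 1384 CPM of AHCY and 2231 CPM of TMBIM6, each the lowest. The same steer had been sampled in ZG, where it had 7702 CPM of FGG and 119 CPM of HP and the lowest share of members in HF ZG (50.4%), against 61.2% in H2. In CH H2, high RFI steer 419 had the highest FGG (27756 CPM), FGA (23167 CPM) and C5 (4831 CPM) of 17 libraries, with the lowest TMBIM6 (2132 CPM) and EPHX1 (757 CPM), and the lowest level of rank 1 (64904 CPM). In HF ZG, high RFI steer 2272 had the highest FGG (26123 CPM), FGA (31132 CPM) and C5 (3516 CPM) of 18 libraries and the lowest EPHX1 (828 CPM). Rank 1 was the lowest of its breed and diet in 4 of the 5 libraries with over 6000 CPM of HP and the next to lowest in the other. High fibrinogen did not go with HP in every library. HF ZG low RFI steer 5635 had 24528 CPM of FGG with 500 CPM of HP. In HF H1, high RFI steer 1811 had 6336 CPM of HP and 14359 CPM of FGG. Low RFI steer 5632 had 9973 CPM of HP and 14711 CPM of FGG. FGG reached 20221 CPM in HF H1 high RFI steer 2071. That steer had 3620 CPM of HP, less than steer 5632 but far above the median of 120 CPM over all libraries. Without the 5 libraries above 6000 CPM of HP, 78 members were called between H2 and H1 in CH (70 rose and 8 fell), 69 between ZG and H1 in HF (63 and 6), 60 between H2 and H1 in HF (52 and 8), and 17 between H2 and ZG in HF (3 and 14). Of all genes, 66.5%, 59%, 56.7% and 7.12% were called in these 4 comparisons. RFI still gave 0 in the 4 comparisons and the one over all groups that contained such a library.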

How the data were processed

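The authors prepared libraries from liver mRNA with a stranded kit and read 50 bp from one end. Reads were adapter-trimmed and aligned with STAR (2.5.3a in the submitters' processing notes) to UMD3.1, and those falling on each Ensembl gene were counted. The deposited values are raw counts, without normalization, and the strand column counted is not given in the sources used here. Groups came from the breed, diet and RFI labels.

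CPM on library totals gave the members, levels and shares, and all fold changes came from edgeR 4.0.16 in R 4.3.3 (TMM, filterByExpr, robust quasi-likelihood test, Benjamini-Hochberg adjustment). The SE is the absolute log2 fold change divided by the square root of F. Diet and breed contrasts used all 90 libraries in 12 groups, and RFI contrasts each breed and diet alone, as in the study. Members and lists were chosen with earlier results of these data known. The named genes were the 20 highest in mean CPM, the 3 called with the largest rise and fall in each comparison, the 5 with the highest and lowest CV, the 5 on either side of the list's lower edge, members of the gene lists, and the 4 smallest p for RFI, of which those that bear on a result are printed. HP and the ranks of the share's largest contributors were named after their values were seen. Of the markers and lists considered, coagulation held 2 members with a name, acute phase 2, and complement, apolipoproteins, amino acid metabolism and detoxification 1 each. The others held 0, since 93 members have no name here. One item is not reported here. P-values cover the spread between the steers of a group. Although 14 steers gave more than 1 library, the main fit had no term for the steer and treated these libraries as independent. Alternatives were DESeq2 1.42.0, limma 3.58.1 with and without the steer as a block, other scalings, no filter, an adjusted p under 0.05 and libraries left out. The fits were checked on simulated data. Tables and figures used Python 3.11.15 with pandas 2.3.3 and matplotlib 3.10.9.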

Additional observations from a re-analysis of the deposited data

Results flagged for a closer look

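The share and the levels of 8 members in the groups of 4 to 10 steers gave 81 sets of values. A library far from the others of its group was found in 18 of them. Chance alone gives about 1 in 20 sets where sets are independent. These sets share libraries, so the 18 cannot be set against that rate.

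The share of the members in HF H1 low RFI steer 5632 (45.9%) lay apart from the next of its group of 7 (51.0%). FGG lay apart in CH H2 high RFI steer 419 (27756 CPM), HF ZG low RFI steer 5635 (24528 CPM) and HF H2 high RFI steer 1639 (33380 CPM). FGA did so in CH H2 low RFI steer 1316 (22738 CPM), CH H2 high RFI steer 419 (23167 CPM), HF H1 high RFI steer 2071 (19551 CPM), HF ZG high RFI steer 2272 (31132 CPM) and HF H2 high RFI steer 1639 (28444 CPM), and on the low side in HF H1 low RFI steer 2220 (9680 CPM). C5 was far above its group in CH H1 low RFI steer 1792 (3675 CPM), CH H2 high RFI steer 419 (4831 CPM) and HF H2 high RFI steer 1639 (4347 CPM). AHCY (3574 CPM) and EPHX1 (2480 CPM) were both far above the rest in CH H2 low RFI steer 454. TMBIM6 was low in HF ZG low RFI steer 2065 (1912 CPM). Rank 1 by mean CPM was low in CH H2 high RFI steer 419 (64904 CPM) and high in HF ZG low RFI steer 5635 (151083 CPM). Steers 419 and 1639 account for 7 of these values, and both had over 6000 CPM of HP. Its part in these values was not tested.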

How the results depend on the processing

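Counts of called members other than those given here stayed within 1.5 times their value under every alternative run. With an adjusted p under 0.05, the count between H2 and ZG was 3 in CH and 3 in HF. With 1 library left out, it ranged from 6 to 24 for CH ZG against H1, from 1 to 9 for CH H2 against ZG and from 6 to 12 for HF H2 against ZG. The DESeq2 Wald test called 3 members for RFI in CH on H1 and 5 in CH on ZG, and 1 in CH on H1 without low RFI steer 1792. AHCY in HF ZG against H1 turned to -0.025 with library totals. The median share was 44.7% for the 50 and 61.8% for the 200 most abundant genes and 44.0% without the gene of rank 1, a choice made after seeing the data, as was leaving out steer 1792 or the 5 libraries with over 6000 CPM of HP. The cause of the changes in calls was not tested. When limma-voom took the steer as a replicate block (the steer number in the labels gave the pairing, and the estimated correlation was 0.124), 77, 68 and 70 members were called in CH H2, HF ZG and HF H2 against H1, and the block changed no count by over 1.5 times. The share without mitochondrially encoded genes was not run, since none of the 26 could be matched to an identifier. Counting error was small for every member, and CH on ZG held only 3 steers against 3.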
